A study of Mus musculus with 2 samples.

Results

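The miR-17-92 and miR-106b-25 clusters are 2 groups of microRNA (miRNA) hairpins, each cut from a single primary transcript, that were read here in small RNA from fetal mouse testes. The 9 hairpins are Mir17, Mir18, Mir19a, Mir20a, Mir19b-1 and Mir92-1 in miR-17-92 and Mir106b, Mir93 and Mir25 in miR-106b-25, out of 2202 annotated mouse hairpins, of which 1230 had reads. A sequence was counted for a hairpin if it was at least 16 nt long and lay exactly, on the sense strand, inside its GENCODE M21 transcript. By this rule 172 distinct sequences belonged to the 9 hairpins, 148 of them in the wild-type (WT) library and 141 in the knockout (KO) library. They were read 32466 times in WT and 33656 times in KO, out of 2523084 and 2561491 hairpin reads, or 1.29% and 1.31%. No sequence lay in hairpins of both clusters.

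The WT library came from 20 pooled whole testes of C57BL/6 mice at embryonic day 16.5 (E16.5), and the KO library from 20 pooled testes of Hsp90-alpha KO mice of the same strain and age. HSP90-alpha is a molecular chaperone, and a whole fetal testis holds germ cells as well as many kinds of somatic cell. Each genotype is a single library, so no difference between them has a replicate check. The 95% intervals below cover the sampling of reads only, and each test compares these 2 libraries rather than the genotypes. Small RNA reads do not measure the Hsp90-alpha messenger RNA, so the genotype labels could not be checked from these tables.

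miRNA hairpins are cut by Drosha in the nucleus and by Dicer in the cytoplasm into a duplex, of which usually a single strand, from the 5′ or the 3′ arm, is kept by an Argonaute protein. Bases 2 to 8 of that strand, the seed, pair with target messenger RNAs, so that miRNAs with the same seed share most of their targets. miR-17-92 is known as an oncogenic and growth-promoting polycistron that represses, among others, the pro-apoptotic gene Bim, and miR-106b-25 is its paralog, carried inside the Mcm7 gene. A further paralog, miR-106a-363, lies on the X chromosome.

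The leading strand of each hairpin is given here because the families are defined by seed and because several members differ from each other by few bases. For Mir18, which used both arms about equally, the 5′ strand is listed. The sequences are the RefSeq mature miRNAs (GRCm38.p6), 5′ to 3′, with the seed in capitals.
miR-92a-3p: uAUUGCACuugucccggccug
miR-25-3p: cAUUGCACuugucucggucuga
miR-17-5p: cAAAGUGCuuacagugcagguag
miR-20a-5p: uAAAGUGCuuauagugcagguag
miR-106b-5p: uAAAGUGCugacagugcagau
miR-93-5p: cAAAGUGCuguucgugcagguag
miR-19a-3p: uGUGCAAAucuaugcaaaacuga
miR-19b-3p: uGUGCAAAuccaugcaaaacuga
miR-18a-5p: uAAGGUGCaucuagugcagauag

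The hairpins of miR-17-92 lay within 836 nt of chromosome 14 (GRCm38), from 115043671 to 115044506 on the plus strand, inside an exon of the noncoding host gene Mir17hg. Those of miR-106b-25 lay within 498 nt of chromosome 5, from 138165321 to 138165818 on the minus strand, inside Mcm7, which encodes a subunit of the replicative helicase. Mir106b was intronic in every Mcm7 transcript, whereas Mir93 and Mir25 also fell inside exons of some of the 10 annotated transcripts. In both polycistrons the last hairpin, Mir92-1 or Mir25, carried the seed AUUGCAC. No antisense read was found in any of the 9 hairpins in either library.

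The levels differed far more between hairpins of a polycistron than between the libraries. Mir92-1, the last hairpin of miR-17-92, stood at 6866 reads per 1000000 hairpin reads (RPM) in WT and 6720 in KO. Mir19a, the lowest, stood at 59.1 and 55.4 RPM, so that Mir92-1 exceeded it 116-fold in WT and 121-fold in KO although both come from the same transcript. With reads that carry added 3′ bases, described further on, the fold was 363 in each library. Mir92-1 alone held 87.5% of the miR-17-92 reads in WT and 86.5% in KO.

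The other members of miR-17-92 filled the range between. Mir19b-1, which has the same seed as Mir19a, was second at 476 RPM in WT and 493 in KO. Mir17, the founding member, was at 216 and 249 RPM. Mir20a, which has the same seed as Mir17, was at 149 and 148 RPM, and Mir18 at 82.4 and 103 RPM. The level therefore did not follow the position of a hairpin in the transcript, since the order along the transcript is Mir17, Mir18, Mir19a, Mir20a, Mir19b-1 and Mir92-1.

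In miR-106b-25 the level rose along the transcript in both libraries. Mir106b, the first hairpin, was at 286 RPM in WT and 288 in KO. Mir93, the second, was at 853 and 918 RPM, and Mir25, the last, was at 3879 and 4165 RPM. Mir25 exceeded Mir106b 13.6-fold in WT and 14.5-fold in KO, and held 77.3% and 77.6% of the reads of its cluster.

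**Figure D1:**
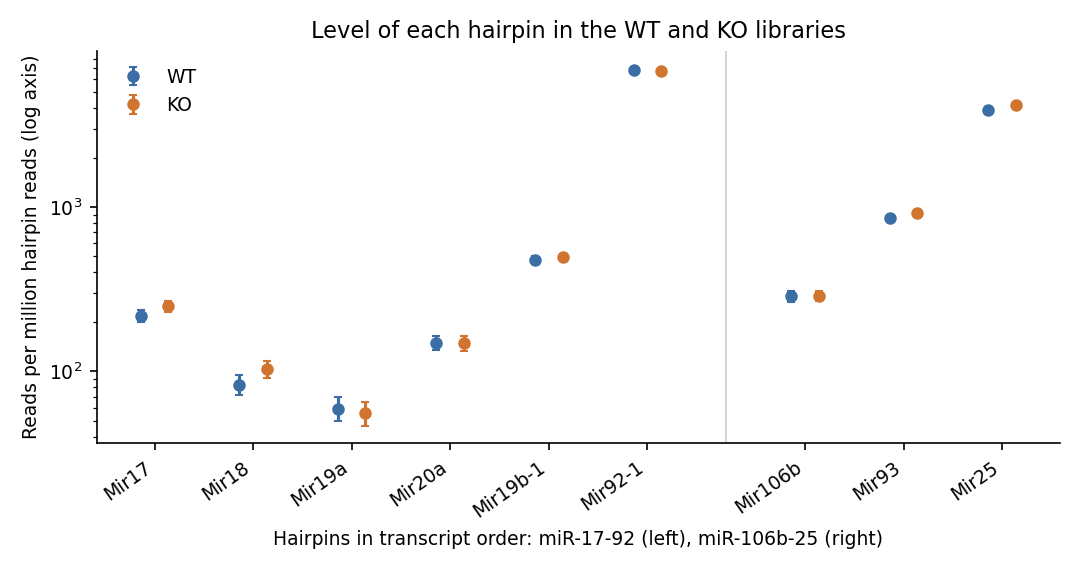
Reads per 1000000 hairpin reads (RPM, log axis) of each of the 9 hairpins, in transcript order, in the WT (blue) and KO (orange) libraries; bars are 95% Poisson intervals of the read count. In each cluster the last hairpin stands highest, at 6866 and 6720 RPM for Mir92-1 and at 3879 and 4165 RPM for Mir25, and the WT and KO points lie close together.

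Over both clusters the order of levels was the same in the 2 libraries: Mir92-1, Mir25, Mir93, Mir19b-1, Mir106b, Mir17, Mir20a, Mir18 and Mir19a. Every step down this order was larger than the sampling of reads. The narrowest step was from Mir106b to Mir17, at 1.33-fold in WT (95% interval 1.18 to 1.48) and 1.16-fold in KO (1.04 to 1.29). The widest was from Mir25 to Mir93, at 4.55-fold (4.34 to 4.77) and 4.54-fold (4.34 to 4.75). Levels of different miRNAs also depend on how well each RNA is ligated and amplified in library preparation, which these tables do not measure.

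Among all hairpins, Mir92-1 ranked 23 by exactly matching reads in both libraries and Mir25 ranked 32 in WT and 29 in KO. The hairpins nearest to Mir92-1 in level over the 2 libraries were Mir199b (7599 and 7463 RPM), Mir30e (7817 and 8206 RPM) and Mir541 (8467 and 7729 RPM). Those nearest to Mir25 were Mir16-2 (4206 and 3990 RPM), Mir16-1 (4236 and 4026 RPM) and Mir125b-2 (3231 and 3615 RPM). The measure of likeness was the distance between log2 RPM values over the 2 libraries.

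When KO was compared with WT, the miR-17-92 cluster as a whole was at 7849 RPM in WT and 7768 in KO, a KO/WT ratio of 0.990 (0.970 to 1.01). The miR-106b-25 cluster was at 5019 RPM in WT and 5371 in KO, a ratio of 1.07 (1.05 to 1.10). The interval of miR-106b-25 lies above 1 and that of miR-17-92 holds 1. The KO/WT ratio of miR-106b-25 was 1.081 times that of miR-17-92 (1.048 to 1.116), a comparison that does not depend on the normalizing total. Mir10b alone made up most of that total, at 559000 RPM in WT and 552400 in KO. With Mir10b left out, the ratio of miR-17-92 was 0.9753 (0.9563 to 0.9948) and that of miR-106b-25 1.055 (1.029 to 1.08). The miR-17-92 ratio turned to 1.15 (1.13 to 1.18) relative to all reads, because the KO library held a larger share of hairpin reads, 45.8% against 39.4%.

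No member reached a KO/WT ratio of 1.5 or fell to 1/1.5. Of all 458 hairpins with at least 100 reads over the 2 libraries, 0% reached 1.5 and 183, or 40.0%, fell to 1/1.5 or below. Most of the latter carried provisional Gm symbols, of which 190 were tested with a median ratio of 0.341. Many Gm hairpins had identical counts, such as 387 WT and 156 KO reads. A sequence in several hairpins was counted whole in each, so the 458 are not independent. Among the 266 hairpins with a Mir symbol 0% reached 1.5 and 7, or 2.63%, fell to 1/1.5 or below, and their median ratio was 0.990. The 9 members had a median of 1.04, beside 0.862 over all 458 hairpins.

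The member ratios ran from 0.939 for Mir19a to 1.245 for Mir18. Mir18, with 208 WT and 263 KO reads, had an interval of 1.034 to 1.501 (adjusted p = 0.032, exact binomial test of reads, Benjamini-Hochberg adjustment over the 458 hairpins). Mir17, with 545 and 637 reads, was at 1.15 (1.03 to 1.29; exact test, adjusted p = 0.0272). Both belong to miR-17-92, and together they account for few of its reads.

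Mir25 had 9788 WT and 10669 KO reads and a ratio of 1.07 (1.05 to 1.10; exact test, adjusted p = 8.26e-07). Mir93 had 2153 and 2352 reads and a ratio of 1.08 (1.02 to 1.14; exact test, adjusted p = 0.0252). Thus 4 of 9 members passed an adjusted p of 0.05 with more reads in KO. The same call was made for 40 of the 458 hairpins (8.73%), and for 15.0% of those with a Mir symbol. By these exact counts and this total, no member passed with fewer reads in KO. That call was made for 51.1% of the 458 and 19.2% of those with a Mir symbol. In either direction 59.8% and 34.2% passed. The adjusted p-values, and the shares of the 458, depend on the repeated Gm counts. Adjusted p-values were not recomputed without those counts. The excess of the 4 members that passed was small, at most 1.245-fold. The ratio of Mir18 was 1.15 (0.982 to 1.34) when reads with added 3′ bases were counted, and that of Mir93 was 1.06 (0.9997 to 1.125) with Mir10b left out of the total, so that each interval then held 1. Relative to all reads, Mir19b-1 was at 1.21 (1.11 to 1.31) and Mir106b at 1.17 (1.06 to 1.30), with intervals above 1.

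The remaining 5 members did not pass. Mir19b-1 was at 1.04 (0.956 to 1.12) and Mir106b at 1.01 (0.906 to 1.12). Mir20a was at 0.993 (0.859 to 1.148) and Mir19a at 0.939 (0.741 to 1.189). Both intervals hold the ratio of Mir93, and that of Mir19a also holds the ratio of Mir17. Mir92-1, with the most reads, was at 0.979 (0.958 to 0.9997; exact test, adjusted p = 0.0752). Its ratio was 0.9645 (0.9443 to 0.9851) with Mir10b left out of the total. With reads that carry added 3′ bases it was 0.9755 (0.9643 to 0.9867). Relative to all reads it was 1.139 (1.116 to 1.164), an interval above 1.

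**Figure D2:**
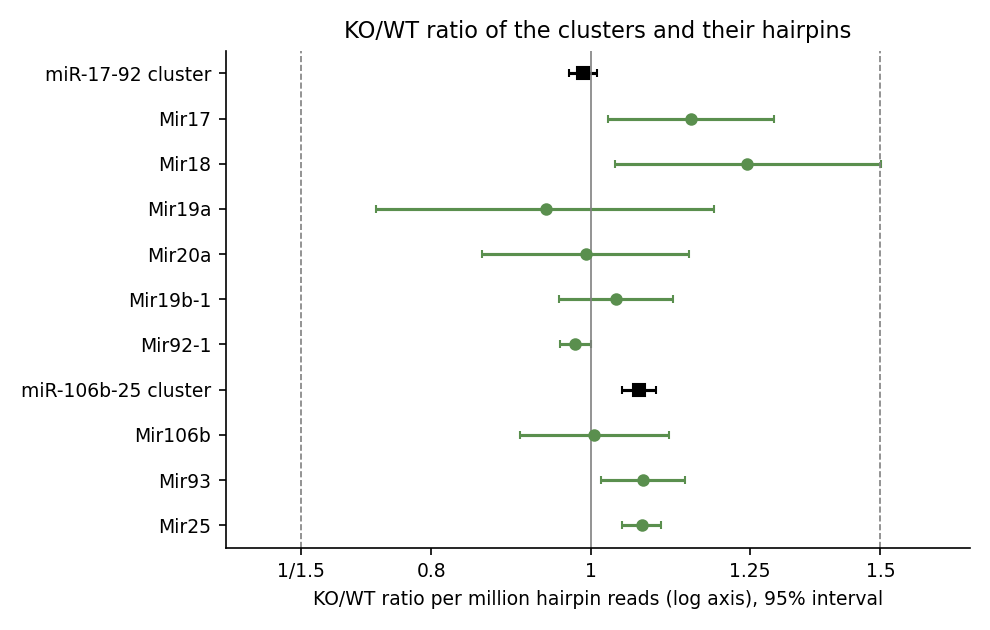
KO/WT ratio of RPM values (log axis) with 95% intervals from read sampling, for the 2 clusters (black squares) and their 9 hairpins (green circles); dashed lines mark 1.5 and 1/1.5. The ratios of the hairpins lie from 0.939 (Mir19a) to 1.245 (Mir18), and those of the clusters are 0.990 and 1.07.

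Each member was also set against the rest of its own polycistron, where the normalizing total plays no part. Mir17 took 2.75% of the miR-17-92 reads in WT and 3.20% in KO, a relative ratio of 1.17 (1.04 to 1.32). Mir18 took 1.05% and 1.32%, a relative ratio of 1.26 (1.05 to 1.52). Mir92-1 moved the other way, with a relative ratio of 0.918 (0.865 to 0.974). It held most of the cluster, so this value and those of Mir17 and Mir18 are not independent. The rest set against Mir92-1 was 2479 WT and 2684 KO reads. Of the Mir19b-1 reads in that rest, 1198 and 1257 also lay in Mir19b-2 of the X-linked paralog. The intervals of Mir19a, Mir20a and Mir19b-1 held 1. In miR-106b-25 the relative ratios were 0.936 (0.841 to 1.04) for Mir106b, 1.01 (0.944 to 1.07) for Mir93 and 1.01 (0.957 to 1.08) for Mir25, so that no hairpin of this cluster shifted against the others beyond read sampling.

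In reads of whole testes, fewer cells of a type and less RNA per cell cannot be told apart. Marker hairpins of other cell types were therefore set beside these ratios. Germ cell hairpins of the Mir290 and Mir302 groups, 10 of 14 with reads, summed to 803 RPM in WT and 1040 in KO, a ratio of 1.30 (1.22 to 1.37). Mir295 gave 1045 of their 2027 WT reads and was at 1.35 (1.24 to 1.46). Mir291a was at 1.48 (1.22 to 1.81) and Mir293 at 1.39 (1.15 to 1.68). The intervals of Mir292, at 1.11 (0.965 to 1.27), and Mir294, at 1.15 (0.941 to 1.41), held 1. Blood hairpins, 6 of 6 with reads, summed to 3575 and 3084 RPM, a ratio of 0.863 (0.837 to 0.889). The gonadal support cell hairpin Mir202 was at 1996 and 2134 RPM, a ratio of 1.07 (1.03 to 1.11), and endothelial hairpins, 1 of 2 with reads, were at 1.003 (0.979 to 1.03). Mesenchymal hairpins, 5 of 5 with reads, summed to 61370 and 62530 RPM, a ratio of 1.02 (1.01 to 1.03), but they did not move together. Mir143 was at 0.811 (0.803 to 0.819) and Mir145a at 0.882 (0.799 to 0.974), whereas Mir199a-1 was at 1.32 (1.31 to 1.34), as was Mir199a-2, and Mir214 was at 0.963 (0.909 to 1.02). Muscle hairpins (50 and 44 reads) were at 19.8 and 17.2 RPM and nervous system hairpins (42 and 37) at 16.7 and 14.4 RPM. The liver hairpin had 16 reads in WT and 1 in KO, a ratio of 0.0616 (0.0015 to 0.396). The part of these cell types in the member ratios was not tested.

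The arms were used unevenly. Each hairpin was placed in a family by the seed of its leading strand, so a shared leading arm within a family is not a separate result. All 4 hairpins with the seed AAAGUGC gave mainly 5′ strands. The 5′ share was 98.0% (95% Wilson interval 97.3 to 98.5) in WT and 98.3% (97.7 to 98.8) in KO for Mir93, and 96.0% (93.5 to 97.6) and 94.99% (92.3 to 96.8) for Mir20a. It was 85.1% (81.9 to 87.9) and 89.6% (87.0 to 91.8) for Mir17. Mir106b was the least one-sided of the 4, at 61.9% (58.3 to 65.4) in WT and 67.6% (64.1 to 70.9) in KO.

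The families AUUGCAC and GUGCAAA gave almost only 3′ strands. The 3′ share was 99.8% in WT and 99.9% in KO for Mir25, 98.5% in both for Mir92-1, 99.3% in both for Mir19a and 99.9% and 99.7% for Mir19b-1. The Mir92-1 5′ strand was still read 265 times in WT and 260 times in KO, beside 208 and 263 reads for both arms of Mir18. Mir18 used both arms about equally, with 108 reads on the 5′ and 100 on the 3′ arm in WT and 146 and 117 in KO, a 5′ share of 51.9% (45.2 to 58.6) and 55.5% (49.5 to 61.4).

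No member's arm share differed between the libraries at an adjusted p of 0.05, beside 5 of 425 hairpins tested (1.18%). The members with the largest difference were Mir106b, whose 5′ share was 5.66 percentage points higher in KO, and Mir17, at 4.50 points higher (Fisher's exact test, adjusted p = 0.357 for each, over the 425 hairpins). Both passed an unadjusted p of 0.05, and no other member did. The reads of the 2 arms of Mir17 had ratios of 1.21 (1.07 to 1.37) for the 5′ and 0.803 (0.571 to 1.13) for the 3′ strand.

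**Figure D3:**
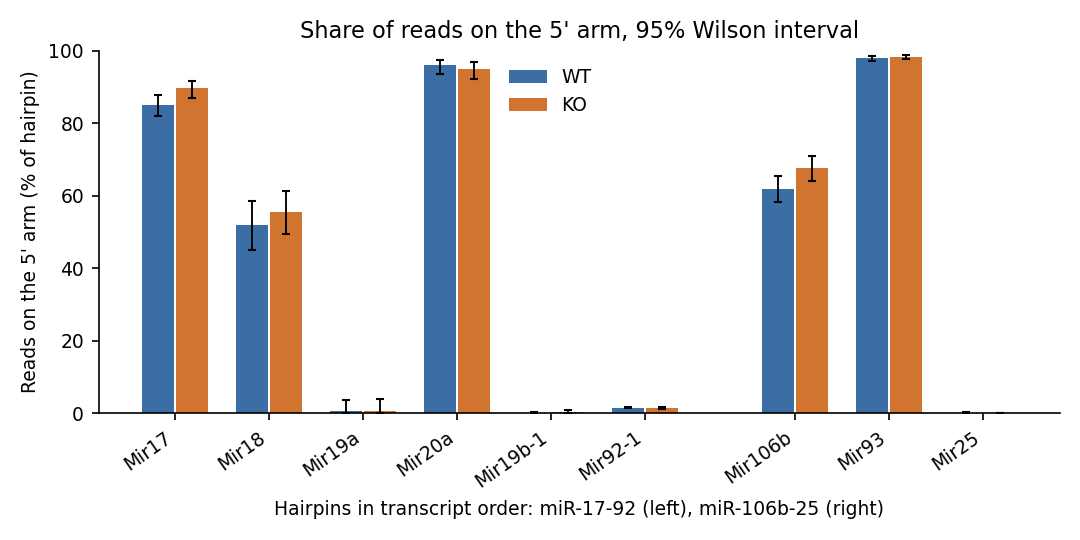
Share of the reads of each hairpin, in percent, that lie on the 5′ arm in the WT (blue) and KO (orange) libraries, with 95% Wilson intervals. Mir17, Mir20a, Mir106b and Mir93 lie above 60%, Mir18 near the middle at 51.9% and 55.5%, and Mir19a, Mir19b-1, Mir92-1 and Mir25 near 0%.

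The start of an miRNA sets its seed, and the starts were nearly fixed on the leading arms. The most frequent start held 100% of the Mir106b 5′ reads, 99.7% of those of Mir20a in both libraries, and 99.2% of the Mir92-1 3′ reads in both. Mir19a was the least uniform leading arm, at 93.2% in WT and 89.4% in KO, because 10 and 14 of its reads began 1 nt earlier and so carry the seed UGUGCAA.

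The minor 3′ strand of Mir106b had a second start. It is shown with the main form, each with its own seed in capitals.
Mir106b 3p, main start: cCGCACUGuggguacuugcu
Mir106b 3p, start 2 nt earlier: uACCGCACuguggguacuugcu
The earlier start took 16% of the 3′ reads of Mir106b in WT and 12.1% in KO, 44 and 29 reads. The main start took 78.9% (73.7 to 83.3) in WT and 87.0% (82.2 to 90.7) in KO (Fisher's exact test, adjusted p = 0.169 over 542 arms). None of the 13 member arms with at least 100 reads differed in the share of the main start at an adjusted p of 0.05, beside 7 of the 542 arms (1.29%).

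Lengths differed between members of a family. Mir17, Mir20a and Mir93 have the same seed and the same mature length in RefSeq, but Mir93 was read about equally in a short and a long form. They are shown because they differ only at the 3′ end.
Mir93 5p, 21 nt: cAAAGUGCuguucgugcaggu
Mir93 5p, 23 nt: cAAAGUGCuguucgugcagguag
The 21-nt form took 36.6% of the Mir93 5′ reads in WT and 38.4% in KO, and the 23-nt form 35.9% and 34.9%. Reads of 23 nt took 74.2% and 70.6% on the Mir20a 5′ arm. On the Mir17 5′ arm they took 66.4% (62.0 to 70.5) in WT and 57.6% (53.5 to 61.6) in KO.

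The Mir17 length was the only difference of this kind among the member arms (Fisher's exact test, adjusted p = 0.0396 over 542 arms). It was 1 of 13 member arms, beside 64 of the 542 arms (11.8%). Reads of 24 nt were more frequent on this arm in KO, at 28.2% against 23.3% in WT. On the Mir25 3′ arm 22-nt reads took 75.3% in WT and 76.2% in KO. Reads of 20 nt took a further 14.5% and 13.2% there.

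**Figure D4:**
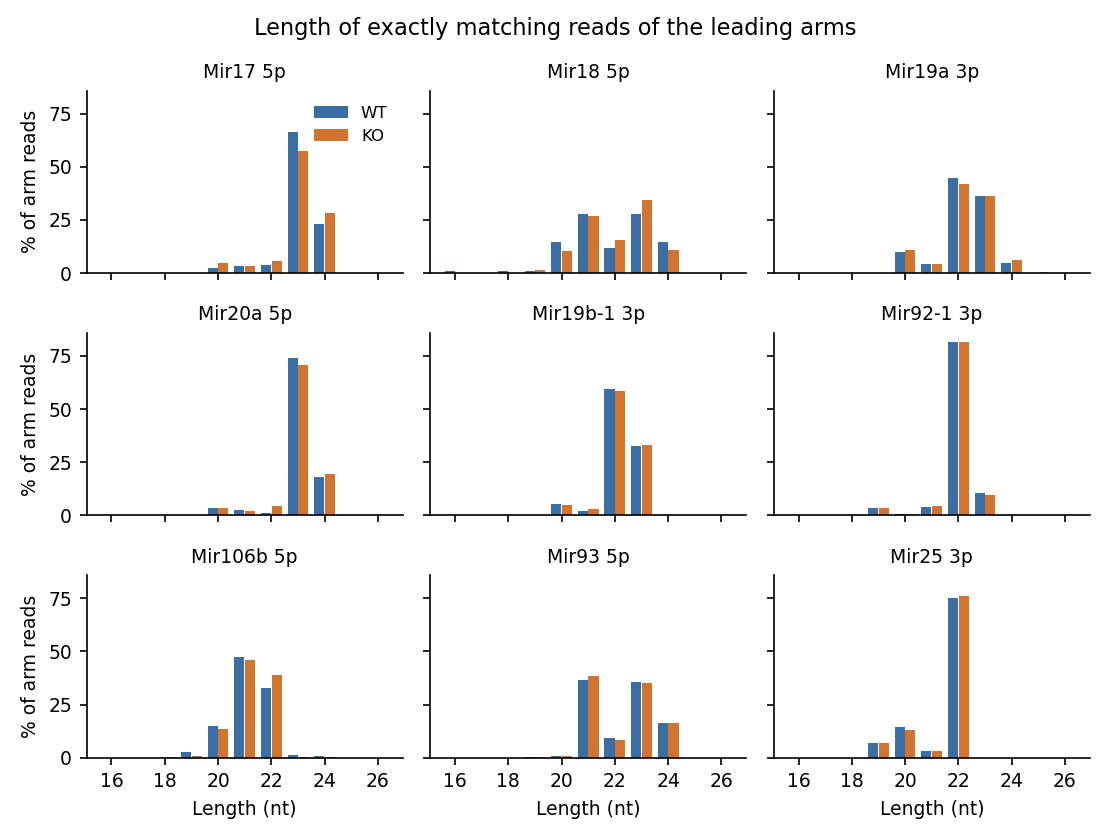
Length in nt of the exactly matching reads of the leading arm of each hairpin, as a percent of the reads of that arm, in WT (blue) and KO (orange). Mir17, Mir20a, Mir92-1 and Mir25 have a single main length, Mir93 peaks at 21 and 23 nt, and Mir18 spreads over 20 to 24 nt.

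Exact matching leaves out reads whose last bases are not those of the hairpin, and these were unusually many for Mir92-1. Of the reads that held the first 18 nt or more of a member exactly and ended in up to 3 other bases, Mir92-1 had 41459 in WT and 40929 in KO, against 17324 and 17214 exact reads. They made up 70.5% of its reads in WT and 70.4% in KO. The share was 10.98% and 10.25% for Mir25, which has the same seed, and lay between 6.68% and 32.0% in both libraries for the other 7 members. The median over 492 hairpins with at least 100 reads, counted the same way, was 10.03% in WT and 11.29% in KO. Over both libraries together 15 of these hairpins had a higher share than Mir92-1.

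Its hairpin is shown with the leading strands of both arms in capitals, followed by the 4 most frequent longer forms of its leading 3′ RNA, with the added bases in capitals.
Mir92-1 hairpin: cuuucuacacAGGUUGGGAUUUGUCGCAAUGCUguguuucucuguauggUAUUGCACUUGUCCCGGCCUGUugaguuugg
Mir92-1 3p with AA: uauugcacuugucccggccuguAA
Mir92-1 3p with AU: uauugcacuugucccggccuguAU
Mir92-1 3p with A: uauugcacuugucccggccuguA
Mir92-1 3p with AAA: uauugcacuugucccggccuguAAA
The leading RNA without added bases had 13867 reads in WT and 13846 in KO. The form with AA had 12434 and 12763 reads and that with AU 11852 and 11195, so that each was nearly as frequent as the leading RNA. The 10 most frequent such forms were searched in 141767 GENCODE transcripts on both strands, and 0 were found whole. The genome itself was not searched.

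Reads that began with the whole leading 22 nt of Mir92-1 numbered 58184 in WT and 57466 in KO. Of these, 73.0% in each library (72.7 to 73.4 in WT, 72.6 to 73.3 in KO) went on with a stretch not wholly of a hairpin. Such a stretch was counted whole and may begin with bases of the hairpin, as the first U of UU does. Only 23.8% and 24.1% ended without added bases, and 3.13% and 2.93% went on with bases of the hairpin alone. Of the added stretches 65.4% in WT and 65.0% in KO were 2 nt long, and 92.1% and 92.0% were made only of A and U. The first added base was A in 89.8% and 90.5%.

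The same measure was far lower for an RNA that differs from it only in the last base. Mir92-2 of the X-linked paralog gives the same 21 nt followed by A in place of U. An A added to the 21-nt RNA of Mir92-1 would read the same, so the share below may not be that of Mir92-2 alone.
Mir92-1, last base U: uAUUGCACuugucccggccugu
Mir92-2, last base A: uAUUGCACuugucccggccuga
Reads that began with the A-ending form went on with a stretch not wholly of a hairpin in 21.2% (19.55 to 22.99) in WT and 23.5% (21.9 to 25.1) in KO. For the other 8 members the share lay between 6.99% (Mir19b-1 in WT) and 17.2% (Mir17 in KO). For Mir93 the most frequent such stretch was AGA, with 170 WT and 140 KO reads, and its AG is that of the hairpin. What adds the bases that are not of a hairpin, and whether library preparation plays a part, was not tested.

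**Figure D5:**
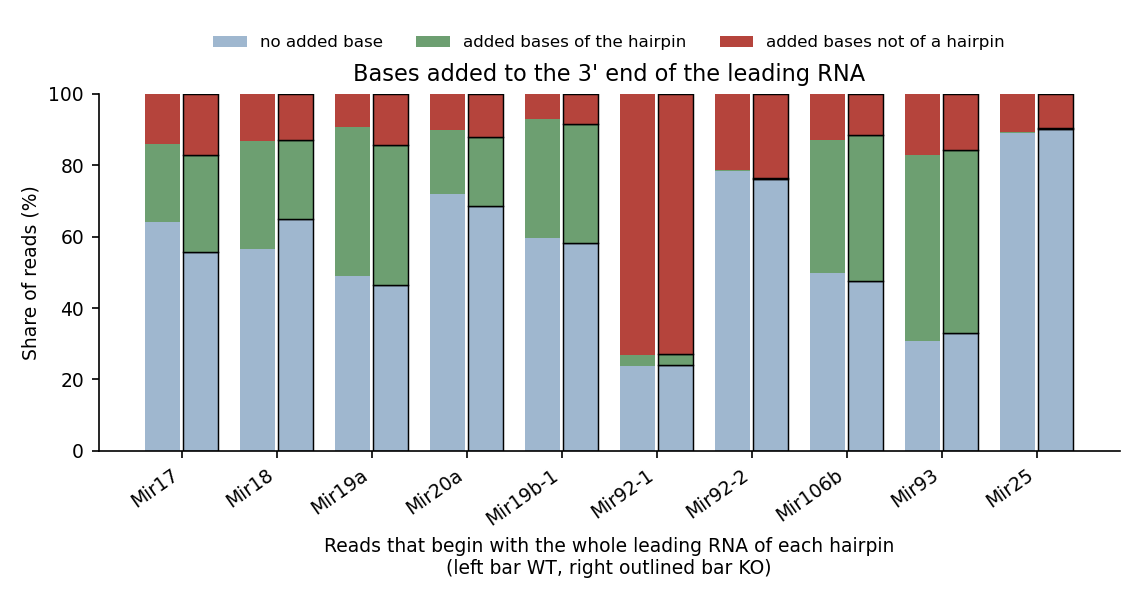
Reads that begin with the whole leading RNA of each hairpin, as a percent, split by what follows it. This is nothing (blue), bases of the hairpin alone (green) or a stretch not wholly of a hairpin (red). The left bar is WT and the outlined right bar KO. The red part is 73.0% for Mir92-1 in both libraries, 21.2% and 23.5% for the A-ending form shown as Mir92-2, and at most 17.2% for the others.

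Counting the tailed reads changed the levels more than the KO/WT ratios. Per 1000000 exact and tailed hairpin reads, Mir92-1 rose to 20520 in WT and 20020 in KO and Mir25 stood at 3838 and 4093. The step from Mir92-1 to Mir25 widened from 1.77-fold (WT) and 1.61-fold (KO) to 5.35-fold and 4.89-fold, while the order of the 9 members remained as it was. The ratio of Mir92-1 was then 0.976 (0.964 to 0.987) and that of miR-17-92 0.9799 (0.969 to 0.991), an interval below 1. That of miR-106b-25 was 1.06 (1.04 to 1.09).

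The tailed forms of Mir92-1 did not all have the same ratio. The form with AA was at 1.01 (0.986 to 1.04) relative to exact hairpin reads. The form with AU was at 0.930 (0.907 to 0.955) and that with UU, 1445 and 1238 reads, at 0.844 (0.782 to 0.911). These 3 were picked after their values were seen.

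By seed, the 2 hairpins with AUUGCAC, Mir92-1 and Mir25, held 81.6% of the member reads of at least 20 nt in WT and 80.9% in KO. The AAAGUGC family of Mir17, Mir20a, Mir106b and Mir93 held 10.7% and 11.5%, the GUGCAAA family of Mir19a and Mir19b-1 4.28% and 4.29%, and the AAGGUGC strand of Mir18 0.338% and 0.447%. The KO/WT ratio was 1.01 (0.996 to 1.03) for AUUGCAC, 1.09 (1.04 to 1.15) for AAAGUGC and 1.02 (0.947 to 1.10) for GUGCAAA. The AAGGUGC strand of Mir18 was at 1.35 (1.04 to 1.75), from 105 WT and 144 KO reads. Of all hairpin reads of at least 20 nt with the seed AAAGUGC, 98.9% in WT and 98.5% in KO lay in members. For AUUGCAC the share was 92.5% and 91.8%, with the reads that Mir92-1 and Mir92-2 have in common counted for the members.

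Other hairpins with a member's seed were Mir92b (110 RPM in WT and 98.4 in KO), Mir32 (15.9 and 19.1) and those of the X-linked cluster. In that cluster Mir92-2 led at 1172 and 1298 RPM and Mir19b-2 was at 476 and 492. Mir363 was at 19.4 and 25.4 RPM, and Mir20b, Mir106a and Mir18b at 4.36 to 12.9 RPM. The miR-106a-363 cluster as a whole was at 1688 RPM in WT and 1845 in KO, a ratio of 1.09 (1.05 to 1.14). Of its 4258 WT and 4727 KO reads, only 1820 and 2164 lay in no other hairpin. The rest were also counted in miR-17-92, so these values are not those of the X-linked cluster alone. As in miR-17-92 and miR-106b-25, the hairpin with the most reads, here Mir92-2, had the seed AUUGCAC. Mir363 of the same cluster also has this seed, at 19.4 RPM in WT and 25.4 in KO.

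Some of these values cannot be divided between the paralogs. Of the Mir19b-1 reads, 99.8% in WT and 99.5% in KO also lay in Mir19b-2, so that its 476 and 493 RPM belong to the pair. Of the Mir92-1 reads 7.16% and 7.59% also lay in Mir92-2. The same reads were 41.95% of the Mir92-2 reads in WT and 39.28% in KO. The other 7 members shared no read with another hairpin.

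Where the last base told Mir92-1 from Mir92-2, the 2 forms had different ratios. The U-ending form had 13867 WT and 13846 KO reads, a ratio of 0.984 (0.961 to 1.01), and the A-ending form 1701 and 2007 reads, a ratio of 1.16 (1.09 to 1.24). The ratio of the A-ending form was 1.18 times that of the U-ending form (1.10 to 1.27). An A added to the 21-nt RNA of Mir92-1 would also read as the A-ending form and cannot be told apart from it here. Forms with C or G at this position, which neither hairpin has, had 28 and 81 reads in WT and 21 and 61 in KO.

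Single-base differences inside the mature RNA were checked only for the pairs named here. miR-17-5p and miR-106a-5p differ by U10A, with positions counted from the 5′ end. The miR-106a-5p sequence was read 36 times in all, whereas U10C and U10G were read 0 times. miR-19b-3p and miR-19a-3p differ by C11U, with 98 reads of the 23-nt miR-19a-3p beside 0 reads each of C11A and C11G. The miR-17-5p sequence itself had 306 reads in WT and 328 in KO, and the 23-nt miR-19b-3p 390 and 418. With so few reads, the counts of 0 say little about how often bases were misread.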

How the data were processed

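Total RNA was made into TruSeq small RNA libraries and read on a MiSeq as 50-bp single ends. After removing adaptors, the authors listed every sequence of 11 to 48 nt with its raw read count, and deposited these 2 tables of 6409305 (WT) and 5589326 (KO) reads. The submitters' processing notes name mm9, but the deposited counts carry no coordinates, and those given here are of GRCm38. GENCODE M21 hairpins were searched for exact copies of each sequence of 16 nt or more with Python 3.11.15. A sequence in several hairpins was counted whole in each and once per cluster. Ratios are per 1000000 reads in any GENCODE hairpin (RPM), a total that differs from the study's miRBase-mapped miRNA reads, with exact conditional intervals, and shares have Wilson intervals (scipy 1.17.1). Tests were exact binomial or Fisher's, with Benjamini-Hochberg adjustment over all hairpins or arms with at least 100 reads rather than over the 9 members, and were checked on simulated data. A floor of 3 reads is 1.19 RPM in WT and 1.17 in KO. Intervals cover counting error only, since reads without molecular identifiers are not independent molecules. The genes named are the members, the miR-106a-363 hairpins, hairpins with a member's seed and at least 10 reads, the 3 hairpins nearest to each leading member, and the hosts. Members and lists were chosen with earlier results of these data known. Measures of 3′ added bases were chosen after the data were seen. RefSeq held the same hairpin sequence for all 9 members.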

Additional observations from a re-analysis of the deposited data

Results flagged for a closer look

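Reads of at least 16 nt also fell in the host transcripts outside any miRNA hairpin, above the 3 reads that a count of 0 allows. Mir17hg had 7 such sense reads in WT and 12 in KO, and Mcm7 51 in WT and 39 in KO. On the antisense strand Mir17hg had 0 in both libraries and Mcm7 2 in WT and 0 in KO. With 19803 and 19898 reads in the 6 hairpins of Mir17hg, the reads of the rest of its transcript were few.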

How the results depend on the processing

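The KO/WT ratio of miR-17-92 was 1.152 (1.13 to 1.175) relative to all reads, an interval above 1. With each distinct sequence counted once it was 1.195 (0.8765 to 1.629), an interval that held 1. It was 0.9753 with Mir10b left out of the total and 0.9799 with 3′ tails allowed, both with intervals below 1, and the other 4 alternatives kept it below 1 with 1 inside the interval. The ratio of miR-106b-25 lay at 1.029 to 1.246 over 8 alternatives, and its interval held 1 only with each distinct sequence counted once (1.029). The ratio of miR-106b-25 over miR-17-92 turned to 0.861 (0.5228 to 1.417) with each distinct sequence counted once. Relative to all reads, the ratios of Mir19a, Mir20a and Mir92-1 turned to 1.093, 1.156 and 1.139. With each distinct sequence counted once they were 1.417, 1.063 and 1.312, and those of Mir106b and Mir25 0.8975 and 0.9323. All of these distinct-sequence intervals held 1. Mir20a was at 1.002 relative to all reads of 20 to 23 nt and at 1.014 with tails allowed, and Mir106b at 0.9908 without Mir10b in the total. Counting distinct sequences once also turned the KO minus WT difference of the 5′ share, in percentage points, to -3.333 for Mir18, -1.667 for Mir19a, 6.667 for Mir20a, 3.333 for Mir92-1 and -6.667 for Mir93. That setting counts 172 sequences in place of 66122 reads, and the other causes were not tested. No paired analysis was possible because each genotype is a single library. No replicate could be left out, for the same reason. Exact matching counts under 30% of the Mir92-1 reads that hold its start.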
